A study of Mus musculus with 8 samples.

Results

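The genes described here are those of the mouse major histocompatibility complex (MHC) and of the machinery that loads its proteins with peptides. They were taken by name and not by a cut on any measured value, though with earlier results of these data known. Every gene whose name on the array begins with H2- was taken, together with *B2m*, *Tap1*, *Tap2*, *Tapbp*, *Tapbpl*, *Erap1*, *Nlrc5*, *Ciita*, *Cd74*, *Cd1d1* and *Cd1d2*, which gave 52 of the 36406 gene or transcript names on the array. The 52 genes have 67 of the 55681 probes, and each gene was read from its brightest probe, by the mean log2 intensity of the 8 arrays. Of the 52 genes, 41 have a probe on chromosome 17, where the MHC lies, 8 lie on other chromosomes and 3 have no position in the scanner output.

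The study used E14Tg2A.4 mouse embryonic stem (ES) cells, for which the labels name no transgene or knockdown in these samples. One condition was left untreated and the other received 1 µM retinoic acid (RA), an inducer of differentiation, for 72 h. With these arrays the study compared self-renewing with differentiating cells. Per the study's methods RA was given in medium lacking leukemia inhibitory factor (LIF), the cytokine that sustains self-renewal of mouse ES cells, so that a change given here as after RA cannot be told apart from one that follows the loss of LIF. Total RNA of 4 biological replicates per condition was hybridized to Agilent expression arrays of 1 colour, so that each array reads a single RNA sample. Both conditions share the line, the labelling and the array design. Each array read the RNA of a whole culture, and fewer cells of a type and less RNA per cell cannot be told apart in such data.

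MHC class I molecules sit on the surface of most nucleated cells and show fragments of the cell's own proteins to cytotoxic T cells and to natural killer cells. Each consists of a heavy chain, the invariant light chain β2-microglobulin and a peptide, which the proteasome cuts, the TAP transporter carries into the endoplasmic reticulum, *Erap1* trims and tapasin helps to load. MHC class II molecules belong to B cells, macrophages and dendritic cells, pair an α with a β chain, travel with the invariant chain *Cd74* and receive peptides of engulfed proteins in endosomes with the help of H2-DM. ES cells are known for low class I and no class II on their surface.

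A level is given below as the log2 intensity relative to the 75th percentile of its array, so that a level of 0 is that percentile and a difference of 1 is a doubling. Levels of different probes are not compared, since probes differ in brightness. Between 56.7% and 62.7% of the 59305 spots that are not controls were well above background on an array, and no spot was saturated. The 7 ES cell markers examined (*Pou5f1*, *Sox2*, *Nanog*, *Zfp42*, *Klf4*, *Esrrb* and *Tdgf1*) stood well above background on each untreated array and all 7 were lower after RA, while all 6 genes of the RA response (*Rarb*, *Cyp26a1*, *Hoxb1*, *Crabp2*, *Dhrs3* and *Stra6*) were higher. The arrays lie on 2 slides, each with 2 arrays of each condition.

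The promoters of the class I genes are shown first, because several class I genes carry the same motifs in the same order there. RefSeq promoter windows (GRCm38.p6, 250 bases before to 50 after the annotated start of the gene) were given for 34 of the 52 genes. *H2-K1*, *H2-M9*, *H2-DMa* and *H2-Ke2* have 2 windows each, of which only the first listed was used. Of each window shown, 210 bases before the start and the first 13 bases of the transcript are printed 5′ to 3′ on the strand of the gene, and capitals mark matches, on either strand, to the motifs spelled out after the sequences. *H2-K1* lies at chr17:34000335-34000557 on the minus strand, *H2-D1* at chr17:35262884-35263106 on the plus strand, *H2-Q7* at chr17:35438945-35439167 on the plus strand, *H2-Q6* at chr17:35424640-35424862 on the plus strand and *H2-Gs10* (current symbol *H2-Q4*) at chr17:35379407-35379629 on the plus strand.
H2-K1 promoter: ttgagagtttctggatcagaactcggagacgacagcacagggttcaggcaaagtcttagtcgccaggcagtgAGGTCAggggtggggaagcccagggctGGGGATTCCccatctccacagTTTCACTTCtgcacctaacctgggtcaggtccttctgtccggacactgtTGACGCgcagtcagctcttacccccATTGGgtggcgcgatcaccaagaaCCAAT
H2-D1 promoter: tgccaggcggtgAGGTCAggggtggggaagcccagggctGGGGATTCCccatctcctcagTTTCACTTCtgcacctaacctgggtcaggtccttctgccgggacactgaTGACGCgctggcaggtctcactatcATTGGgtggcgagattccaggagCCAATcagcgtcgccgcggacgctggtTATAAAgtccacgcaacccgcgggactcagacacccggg
H2-Q7 promoter: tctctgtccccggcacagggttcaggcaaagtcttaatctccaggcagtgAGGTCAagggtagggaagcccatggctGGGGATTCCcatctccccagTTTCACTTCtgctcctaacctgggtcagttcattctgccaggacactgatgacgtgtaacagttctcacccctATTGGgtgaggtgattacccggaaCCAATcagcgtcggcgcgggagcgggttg
H2-Q6 promoter: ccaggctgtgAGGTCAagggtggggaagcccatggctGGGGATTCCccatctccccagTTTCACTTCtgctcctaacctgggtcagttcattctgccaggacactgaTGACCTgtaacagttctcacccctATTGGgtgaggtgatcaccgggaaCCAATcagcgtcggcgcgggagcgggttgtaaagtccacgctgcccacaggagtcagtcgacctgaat
H2-Gs10 promoter: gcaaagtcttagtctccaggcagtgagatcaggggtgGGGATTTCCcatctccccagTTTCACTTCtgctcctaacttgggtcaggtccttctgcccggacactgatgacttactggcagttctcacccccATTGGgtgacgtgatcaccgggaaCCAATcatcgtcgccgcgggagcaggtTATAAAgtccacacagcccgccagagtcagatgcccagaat
The next set is shown because these genes carry another spacing of the interferon-type motif. *H2-T23* lies at chr17:36032689-36032911 on the minus strand, *B2m* at chr2:122147477-122147699 on the plus strand and *Erap1* at chr13:74639643-74639865 on the plus strand.
H2-T23 promoter: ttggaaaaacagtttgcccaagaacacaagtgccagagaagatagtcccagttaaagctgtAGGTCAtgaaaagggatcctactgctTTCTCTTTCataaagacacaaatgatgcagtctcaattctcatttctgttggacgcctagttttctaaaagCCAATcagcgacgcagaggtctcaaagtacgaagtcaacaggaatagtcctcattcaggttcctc
B2m promoter: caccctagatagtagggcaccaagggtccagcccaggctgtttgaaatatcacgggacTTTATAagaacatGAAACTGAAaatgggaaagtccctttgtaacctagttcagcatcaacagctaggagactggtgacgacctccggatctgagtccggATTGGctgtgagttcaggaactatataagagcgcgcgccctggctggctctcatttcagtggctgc
Erap1 promoter: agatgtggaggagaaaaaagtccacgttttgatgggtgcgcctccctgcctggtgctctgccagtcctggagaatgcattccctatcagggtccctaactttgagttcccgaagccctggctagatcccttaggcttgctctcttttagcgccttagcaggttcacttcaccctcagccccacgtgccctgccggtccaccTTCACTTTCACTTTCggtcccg

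The κB-type motif GGGNNTTCC, letters that NF-κB dimers bind, was found in 8 of the 34 windows (*H2-K1*, *H2-D1*, *H2-Q6*, *H2-Q7*, *H2-Gs10*, *H2-M2*, *H2-Aa* and *H2-Oa*) and in 5.82% of all 32851 windows. The interferon-type motif GAANNGAAA was found in 8 of the 34, all of them class I genes, and in 7.52% of all windows. The longer spacing GAAANNGAA was found in 3 of the 34 (*B2m*, *H2-T23* and *Erap1*) and in 8.56% of all windows. Both GGGNNTTCC and GAANNGAAA lay in the windows of *H2-K1*, *H2-D1*, *H2-Q6*, *H2-Q7*, *H2-Gs10* and *H2-M2*, and in 0.417% of all windows. Their first bases were 20 or 21 bases apart in the first 5 of these genes and 37 in *H2-M2*. In 4 of the 5 the nuclear receptor motif AGGTCA began 27 bases before the κB-type match, and the lines above show the order of the 3 motifs.

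The CRE-like letters TGACGC were found in 4 of the 34 windows and in 7.40% of all windows. The CCAAT box was found in 28 of the 34 and in 37.4% of all windows, AGGTCA in 9 of the 34 and in 16.3%, and TATAAA in 14 of the 34 and in 13.6%. No 2 matches of different motifs overlapped in these windows. In the windows used, *H2-K1* carried TATAAA 35 bases after its annotated start and *H2-D1* 26 bases before it. The 2 starts used thus lie at different places in otherwise like sequence, and the second window of *H2-K1* was not examined. *H2-Q6* did not pass the test after RA, and the probe of *H2-Gs10* was lower. Both genes carried the same pair of interferon-type and κB-type motifs as *H2-K1*, *H2-D1* and *H2-Q7*, which were higher. The probe of *H2-Gs10* has pieces found in windows of 23 other genes. Its fall did not pass the test with quantile normalization or in slide 2 alone. A match is a run of letters and no evidence that a factor bound there.

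**Figure D1:**
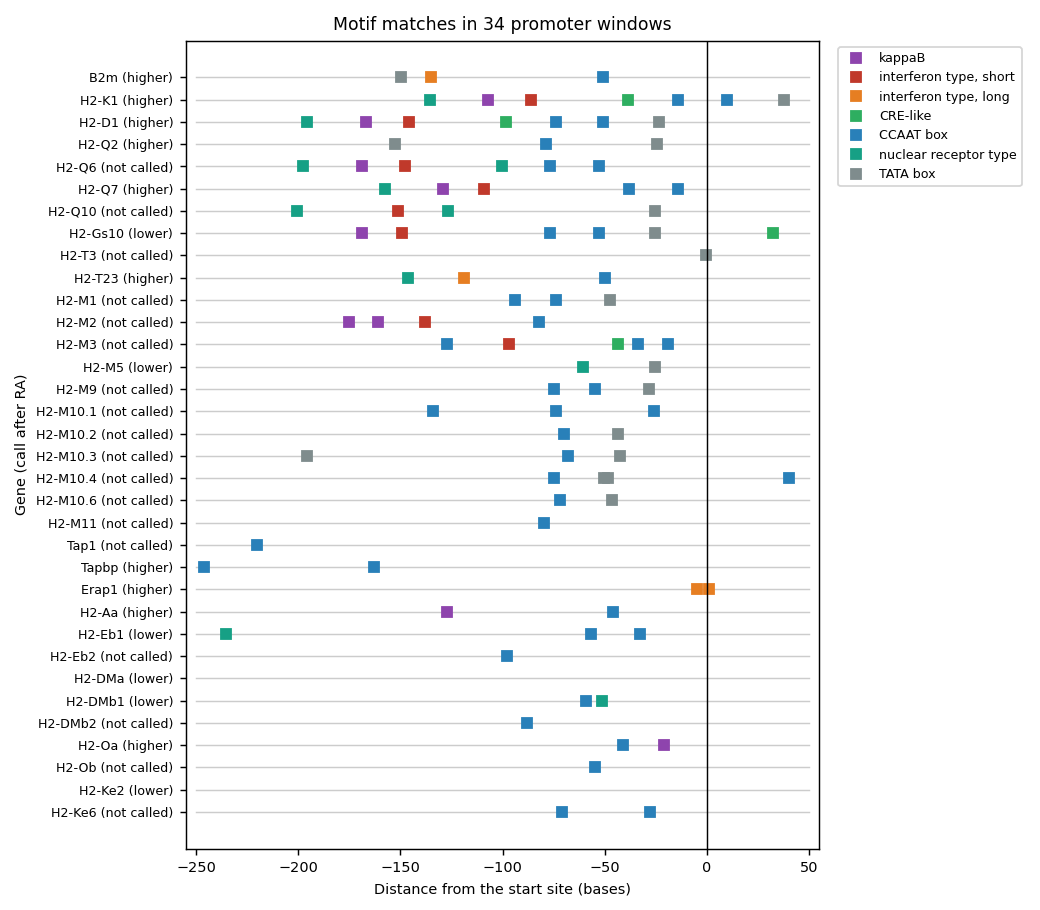
Motif matches in the promoter windows of the 34 genes that have one, by distance from the annotated start site in bases (x axis, start at 0), with one line per gene and its call after RA in brackets. The κB-type and short interferon-type matches lie 20 or 21 bases apart in *H2-K1*, *H2-D1*, *H2-Q6*, *H2-Q7* and *H2-Gs10*.

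After RA, 15 of the 52 genes were higher and 9 were lower, by limma with an adjusted p under 0.05 over all probes and a fold above 1.5. The background over all 36406 names, each by its brightest probe, was 13.9% higher and 22.1% lower, against 28.8% and 17.3% of the 52 genes. In either direction 46.2% of the genes were called, against 36.1% of all names. The median log2 fold change of the 52 genes was -0.08, beside -0.28 over all names. With quantile normalization these medians were 0.09 and -0.0043, and 16 of the genes were higher and 6 lower, so that a change is best read against the shift of all genes under the scaling used.

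The 8 arrays did not overlap between the conditions for 14 genes that were higher and 9 that were lower, beside 15.3% and 25.3% of all names, and 21 of the 24 called genes were among them. All 24 kept their direction within slide 1 and within slide 2, which any split of the arrays would give for the 21 without overlap. With 2 arrays against 2, the test was passed by 13 of the 24 within slide 1, by 10 within slide 2 and by 8 within both (*B2m*, *H2-T9*, *H2-T10*, *H2-M5*, *Tapbp*, *Erap1*, *H2-Oa* and *Cd74*). Of the 52 genes, 31 were well above background on all 8 arrays, 35 on all 4 arrays of at least one condition and 10 on none.

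**Figure D2:**
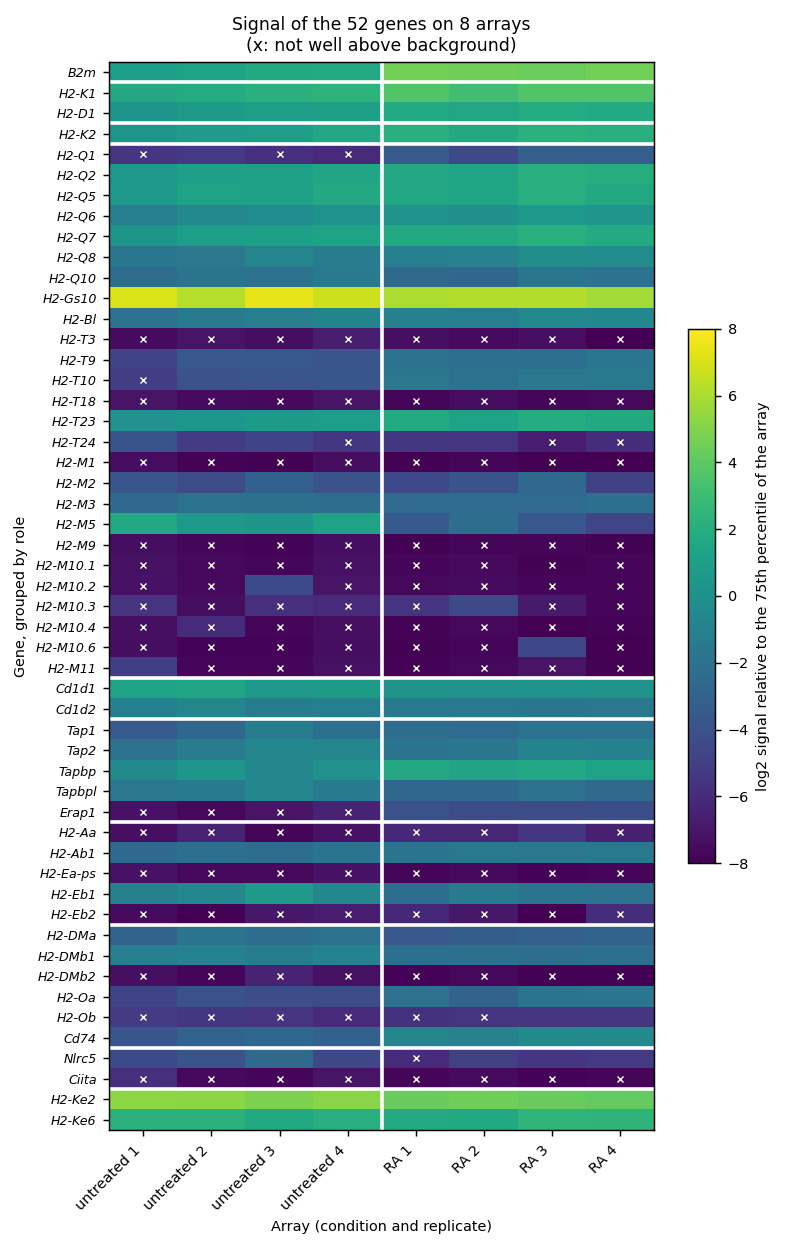
Levels of the 52 genes (rows, grouped by role) on the 8 arrays (columns), as log2 intensity relative to the 75th percentile of the array. Crosses mark arrays on which the probe was not well above background, which was the case on all arrays for 10 genes. The colour of *B2m*, *H2-K1*, *Cd74* and *H2-Oa* differs between the conditions on every array, in the direction opposite to that of *H2-M5*.

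The light chain and both classical class I heavy chains rose together. *B2m*, which encodes the light chain β2-microglobulin that every class I heavy chain needs (probe at chr2:121978401-121978460, mm9), had levels of 1.04, 1.26, 1.73 and 1.76 on the untreated arrays 1 to 4 and of 4.58, 4.51, 4.35 and 4.58 on the RA arrays 1 to 4. All RA arrays lay above all untreated arrays by more than the spread within either condition. *B2m* rose 8.34-fold (log2 3.06 ± 0.19, SE, n = 4 arrays per condition, adjusted p = 9.24e-06), the largest fitted increase among the 52 genes, and by 3.20 and 2.92 on the log2 scale within slides 1 and 2.

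*H2-K1*, one of the classical heavy chains that present peptides to cytotoxic T cells (probe at chr17:34133055-34133114, mm9), had levels of 1.68, 1.82, 2.15 and 2.36 without treatment and of 3.64, 3.07, 3.68 and 3.68 after RA. RA array 2 lay apart from the other RA arrays, and still above every untreated array. The rise was 2.85-fold (log2 1.51 ± 0.21, adjusted p = 0.000577), and its other probe gave 1.44. Within slide 2 alone, which holds RA array 2, the rise of 1.28 did not pass the test (adjusted p = 0.0618).

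*H2-D1*, the other classical heavy chain on the array (probe at chr17:35403886-35403945, mm9), had levels of 0.28, 0.74, 0.99 and 1.07 without treatment and of 1.76, 1.60, 1.89 and 1.78 after RA. Again the conditions did not overlap. The rise was 1.98-fold (log2 0.98 ± 0.19, adjusted p = 0.00367), and it did not pass the test within either slide alone, at 1.13 and 0.84. The class I pseudogene *H2-K2*, which is transcribed and lies next to *H2-K1*, went from 0.40, 0.87, 0.99 and 1.51 to 2.16, 1.73, 2.22 and 2.09 (log2 1.11 ± 0.24, adjusted p = 0.00606), and its other probe gave 1.14.

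The remaining class I genes lie in the Q, T and M regions, whose products are nonclassical heavy chains with restricted expression and often specialised ligands, and RefSeq lists *H2-Q5*, *H2-Bl* and *H2-T10* among them as transcribed pseudogenes. Of these 26 genes, 6 were higher (23.1%) and 2 were lower (7.69%), beside 13.9% and 22.1% of all names. Another 6 were not well above background on any array. In the T region *H2-T10*, *H2-T9* and *H2-T23* were higher. *H2-T10* went from -5.11, -3.89, -3.77 and -3.72 to -1.65, -1.99, -1.61 and -1.55 (log2 2.42 ± 0.31, adjusted p = 0.000335), and 3 of its 4 untreated arrays were well above background. *H2-T9* went from -4.74, -3.66, -3.61 and -3.81 to -1.91, -2.16, -2.19 and -1.74 (log2 1.96 ± 0.27, adjusted p = 0.000462). For both genes every RA array lay more than 1 log2 unit above the untreated arrays. With normexp the log2 fold changes of *H2-T10* and *H2-T9* were 1.39 and 1.15, and both were still called. T10 proteins of other mouse strains are known ligands of γδ T cells.

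*H2-T23* encodes Qa-1, which shows leader peptides of other class I chains to the CD94/NKG2A receptor of natural killer cells. Its levels were 0.07, 0.40, 0.69 and 1.00 without treatment and 1.76, 1.29, 1.90 and 1.74 after RA (2.19-fold, log2 1.13 ± 0.23, adjusted p = 0.00438). The conditions did not overlap, with RA array 2 lowest among the RA arrays. The probe of *H2-T23* shares a run of 29 bases with the unused probe of *H2-K1*, which is shown because a transcript of one gene could bind the probe of the other.
H2-T23 and H2-K1 probes, shared run: tggagctgtggtggcttttgtgatgaaga

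In the Q region, *H2-Q7*, which encodes a Qa-2 molecule, had levels of 0.28, 0.90, 1.01 and 1.30 without treatment and of 1.72, 1.64, 2.14 and 1.79 after RA (1.93-fold, log2 0.95 ± 0.23, adjusted p = 0.011). *H2-Q1* went from -5.47, -5.31, -5.76 and -6.00 to -3.41, -4.48, -3.14 and -3.24 (log2 2.07 ± 0.31, adjusted p = 0.000805), and only 1 untreated array was well above background. Its log2 fold change was 0.63 with normexp (adjusted p = 0.00548), and within slide 2 the call ended (1.84, adjusted p = 0.06). Neither gene overlapped between the conditions. *H2-Q2* went from 0.52, 1.01, 1.15 and 1.47 to 1.65, 1.44, 2.15 and 1.98 (log2 0.77 ± 0.24, adjusted p = 0.0329). Its conditions overlapped, its other probe gave 0.08 (adjusted p = 0.83), and leaving out untreated array 1 or 2 or RA array 1, 3 or 4 ended the call.

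*H2-Q5*, *H2-Q6*, *H2-Q8* and *H2-Q10* were not called. *H2-Q8* passed with the replicate number as a block (adjusted p = 0.0166), with normexp background correction (0.61, adjusted p = 0.049) and without untreated array 3 (adjusted p = 0.0318), and *H2-Q6* with normexp (0.62, adjusted p = 0.0289), with dim probes removed (adjusted p = 0.0468) and without untreated array 4 (adjusted p = 0.0277). Their log2 fold changes were 0.73 for *H2-Q8*, 0.68 for *H2-Q6*, 0.53 for *H2-Q5* and -0.28 for *H2-Q10*, and that of the pseudogene *H2-Bl* was 0.54. The probes of *H2-Q10* disagreed in size: the brighter gave -0.28 (adjusted p = 0.414) and the other, from -2.49 ± 0.16 (SD, n = 4) to -4.79 ± 0.58, gave -2.30 (adjusted p = 0.000223), and their mean passed the test at -1.29 (adjusted p = 0.00201). The probe of *H2-Q7* shares 28 bases with the unused probe of *H2-K2*, and that of *H2-Q6* shares 54 bases with a probe for an unnamed transcript, so signals of Q region probes cannot be given to a single gene with certainty.
H2-Q7 and H2-K2 probes, shared run: tctcctgtgacatccagagccctcagtt

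Against these, *H2-M5* fell further than any of the 52 genes. Its levels were 1.67, 0.54, 0.27 and 1.21 without treatment and -3.45, -2.28, -3.67 and -4.64 after RA (probe at chr17:37121007-37121066, mm9). All RA arrays lay at least 2 log2 units under all untreated arrays. The fall was 21.6-fold (log2 -4.43 ± 0.49, adjusted p = 0.000158), and the alternatives gave log2 values from -5.01 within slide 1 to -3.36 with the deposited log2 table, all of them called. The other probe was well above background on 2 untreated arrays and no RA array, and was at least 2.23-fold lower after RA (adjusted p = 2.67e-05). *H2-M5* is a nonclassical class I gene of the distal M region.

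*H2-Gs10* also fell, and went from 7.07, 6.22, 7.40 and 6.80 to 6.05, 6.14, 6.15 and 5.78 (log2 -0.84 ± 0.25, adjusted p = 0.0258). The lowest untreated array lay just above the highest RA array. Quantile normalization gave -0.60 (adjusted p = 0.138), slide 2 alone gave -0.36, and leaving out untreated array 1 or RA array 1 or 4 also ended the call. Pieces of 25 bases of this probe occur in 24 promoter windows, those of 23 other genes among them, and no probe of another of the 52 genes had any such piece. The part of other transcripts in its signal was not tested.
H2-Gs10 probe, piece found in 18 windows: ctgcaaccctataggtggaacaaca

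The remaining M and T region genes were dim or did not pass the test. *H2-M2* and *H2-M3*, the latter known for presenting formylated peptides of bacteria, were well above background on all arrays and gave -0.17 and -0.16. *H2-T24* gave -1.11 (adjusted p = 0.0575), with 3 untreated and 2 RA arrays well above background, and passed the test with the replicate number (adjusted p = 0.0391) or the slide (adjusted p = 0.0299) as a block, with dim probes removed (adjusted p = 0.0373), by the mean of its probes (-0.71, adjusted p = 0.0465) and without untreated array 4 (adjusted p = 0.0434). For *H2-T3*, *H2-T18*, *H2-M1*, *H2-M9* and the genes of the M10 and M11 group at most 1 array was well above background.

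*Cd1d1*, which presents lipids to NKT cells, fell. It went from 1.26, 1.48, 0.53 and 0.73 to 0.22, 0.12, 0.13 and 0.20 (log2 -0.83 ± 0.22, adjusted p = 0.0159), with no overlap, and its other probe gave -0.65. *Cd1d2* was not called, and its probes disagreed in direction. The brighter gave -0.56 ± 0.17 (log2, SE, adjusted p = 0.0289), under the fold limit, and was called lower without untreated array 3 or RA array 1. The other gave 1.01 (adjusted p = 0.068) with 0 untreated and 3 RA arrays well above background. The mean of both probes gave 0.23 (adjusted p = 0.389).

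Of the 5 genes that supply and load peptides, 2 were higher, 1 was lower and both subunits of the transporter did not pass the test. *Tapbp* encodes tapasin, which bridges TAP and the empty class I molecule, and lies at the centromeric end of the MHC (probe at chr17:34065963-34066022, mm9). Its levels were -0.40, 0.43, -0.62 and 0.10 without treatment and 1.65, 1.36, 1.59 and 1.29 after RA. The conditions did not overlap, and the rise was 3.01-fold (log2 1.59 ± 0.24, adjusted p = 0.00086).

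*Erap1*, the aminopeptidase that trims peptides to the length class I binds, was not well above background on any untreated array, at -7.23, -7.67, -7.14 and -6.40, and was on every RA array, at -4.02, -4.34, -4.33 and -4.15. Where the brightest probe of a gene was dim in a condition, the text gives its main change only as a bound. The bound comes from the lowest intensity well above background on each array or the gene's own where that is higher. No fold is given where the bound does not reach 1, and alternative fits are given as fitted. On this bound, *Erap1* was at least 2.71-fold higher on RA arrays (adjusted p = 4.43e-05). With normexp background correction its log2 fold change was 0.50 (adjusted p = 0.00597) and missed the fold limit.

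Of the TAP transporter, which pumps peptides across the membrane, *Tap1* went from -3.41, -2.74, -1.22 and -2.17 to -2.28, -2.41, -1.92 and -1.92 (log2 0.25, 95% interval -0.69 to 1.19, adjusted p = 0.638). *Tap2* went from -2.00, -1.29, -0.59 and -0.70 to -1.85, -1.72, -0.87 and -0.94 (log2 -0.20, 95% interval -1.02 to 0.62, adjusted p = 0.666). For both subunits the RA arrays lay within the range of the untreated arrays, and the intervals leave room for a change of about 1 log2 unit. *Tapbpl*, which encodes the peptide editor TAPBPR, fell from -1.66, -1.50, -0.57 and -1.38 to -2.57, -2.60, -1.95 and -2.47 (log2 -1.12 ± 0.26, adjusted p = 0.00938), without overlap.

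**Figure D3:**
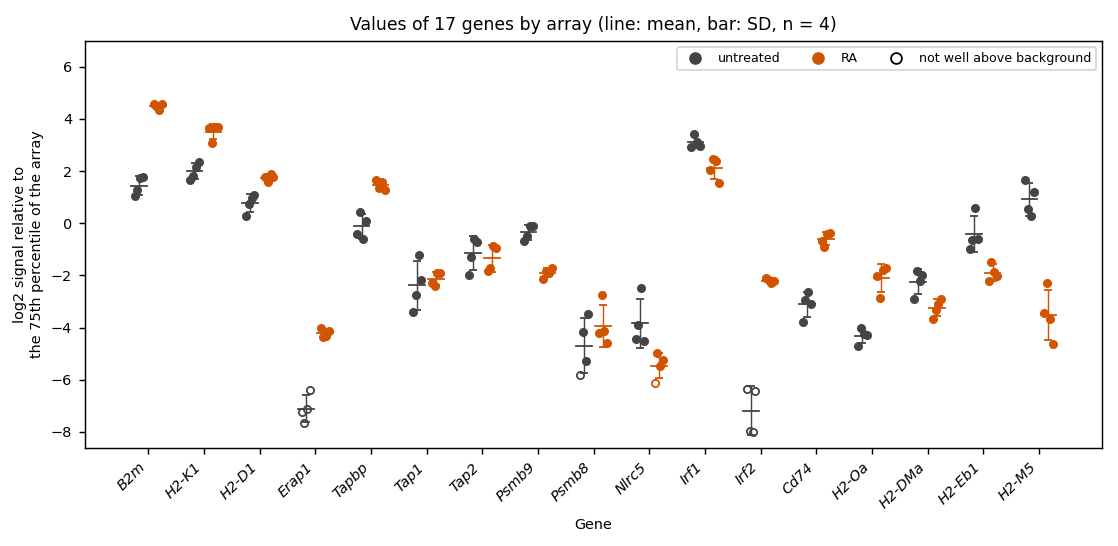
Levels of 17 genes on each array, as log2 intensity relative to the 75th percentile of the array (y axis), with untreated arrays in grey and RA arrays in orange. Lines are means, bars SD (n = 4) and open points arrays not well above background. *B2m*, *H2-K1*, *H2-D1*, *Tapbp*, *Cd74* and *H2-Oa* lie higher after RA without overlap, *Tap1* and *Tap2* overlap, and *Psmb9*, *Irf1*, *Nlrc5*, *H2-Eb1* and *H2-M5* lie lower.

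In lists of 88 other genes (antigen processing, class II regulation, interferon and NF-κB signalling, genes induced by interferon, NKG2D ligands and other class I-like proteins), 24 were higher (27.3%) and 17 lower (19.3%), beside the 13.9% and 22.1% of all names. With quantile normalization 28 were higher and 13 lower. Of the 6 genes of the immunoproteasome and the proteasome activator 2 were higher and 2 lower. *Psme2* and *Psme1*, subunits of the PA28 activator that caps the proteasome, gave 1.88 (adjusted p = 0.00013) and 0.60 (adjusted p = 0.0222), while *Psmb9* and *Psmb10*, catalytic subunits of the immunoproteasome, fell by 1.55 (adjusted p = 0.000215) and 0.77 (adjusted p = 0.0389) on the log2 scale. *Psme3*, a further activator gene, gave 0.02 (adjusted p = 0.945).

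*Psme2* went from 2.36, 2.68, 1.82 and 2.12 to 4.22, 4.31, 3.95 and 4.03, and *Psmb9*, which lies beside *Tap1*, from -0.67, -0.48, -0.10 and -0.10 to -2.14, -1.84, -1.89 and -1.70. Neither gene overlapped between the conditions. *Psmb8*, the remaining catalytic subunit of the immunoproteasome, went from a mean of -4.69 ± 1.07 (SD, n = 4) to -3.93 ± 0.80 and did not pass the test (adjusted p = 0.287). Of the 9 folding partners and relatives, *Pdia3*, the disulfide isomerase ERp57 of the loading complex, gave 0.86 and the chaperone gene *Hspa5* 0.64, and the other 7 were not called. Among these, *Sec61g* (-0.56, adjusted p = 0.0244), *Uggt1* (-0.37, adjusted p = 0.0442) and *Sec61a1* (0.38, adjusted p = 0.0488) had an adjusted p under 0.05 and missed the fold limit, and *Calr* and *Canx* missed both.

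Of the 11 class II chains and accessory genes 3 were higher and 3 were lower, 27.3% each, beside 13.9% and 22.1% of all names. *Cd74*, the invariant chain that guards the class II groove (probe on chromosome 18), rose most. Its levels were -3.78, -2.94, -2.62 and -3.11 without treatment and -0.69, -0.91, -0.42 and -0.36 after RA (5.71-fold, log2 2.51 ± 0.26, adjusted p = 9.67e-05). *H2-Oa*, a chain of H2-O, which holds H2-DM in check, went from -4.71, -4.02, -4.24 and -4.29 to -2.03, -2.86, -1.80 and -1.71 (4.64-fold, log2 2.21 ± 0.27, adjusted p = 0.000279). Both rose on every RA array, with array 2 the lowest among them, and with normexp *H2-Oa* gave 1.30. The partner chain *H2-Ob* was well above background on only 2 arrays, both after RA.

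Of the chains of H2-DM, which exchanges the invariant chain fragment for peptide, *H2-DMb1* and *H2-DMa* fell, and *H2-DMb2* was not well above background on any array. *H2-DMb1* went from -1.15, -0.91, -1.29 and -0.94 to -2.19, -2.06, -2.30 and -2.18 (log2 -1.11 ± 0.14, adjusted p = 0.000364), with narrow spread and no overlap. *H2-DMa* went from -2.91, -1.83, -2.20 and -2.00 to -3.66, -3.31, -3.09 and -2.89 (log2 -1.00 ± 0.27, adjusted p = 0.0169). Untreated array 1 overlapped the RA arrays, and the call ended with quantile normalization (-0.84, adjusted p = 0.069), with the deposited log2 table (-0.55, adjusted p = 0.0536) and within slide 1 (-0.71, adjusted p = 0.305).

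Among the class II chains proper, *H2-Eb1* fell from -1.00, -0.62, 0.60 and -0.58 to -2.22, -1.47, -1.87 and -2.04 (log2 -1.50 ± 0.34, adjusted p = 0.00739). The conditions did not overlap, and untreated array 3 was the highest by more than 1 log2 unit. *H2-Ab1* gave 0.55 (adjusted p = 0.033), under the fold limit, and its dimmer probe gave 0.59 (adjusted p = 0.00918), which is past it. By its brighter probe *H2-Ab1* was called with quantile normalization (0.64, adjusted p = 0.0261) and without untreated array 4 or RA array 1. *H2-Aa*, its partner, is 1 of the 15 genes counted as higher by the test (adjusted p = 0.032), yet only 1 of its 8 arrays, RA array 3, was well above background and its bound gives no fold. Its fit gave -0.0033 with normexp and 0.21 with the deposited log2 table, and lost the call with the replicate number as a block (adjusted p = 0.0642), within each slide and without any single array other than untreated array 2 or RA array 4. *H2-Eb2* and *H2-Ea-ps* were not well above background on any array.

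Of the regulators, one fell and the other was dim throughout. *Nlrc5*, the transactivator of class I genes (probe at chr8:97051105-97051164, mm9), went from -4.43, -3.91, -2.50 and -4.52 to -6.11, -4.98, -5.49 and -5.25, and 3 of the 4 RA arrays were well above background. All RA arrays lay under all untreated arrays, so that the level of *Nlrc5* and that of *B2m*, *H2-K1* and *Tapbp* moved in opposite directions in the same arrays. The fall was 3.06-fold (log2 -1.62 ± 0.45, adjusted p = 0.0208). The other probe was well above background on 2 untreated arrays and no RA array, which bounds the fall there at 1.64-fold or more (adjusted p = 0.000464). The size of the fall depended on the processing: the brighter probe gave -0.74 with normexp (adjusted p = 0.00546), and with the deposited log2 table -0.48 (adjusted p = 0.109), where the call ended. The call also ended with quantile normalization (-1.32, adjusted p = 0.0785), with normexp and quantile normalization together (-0.49, adjusted p = 0.102), within each slide (-2.22 and -1.02) and without RA array 1 (-1.40, adjusted p = 0.0559). *Ciita*, the transactivator of class II genes, was not well above background on any array, with untreated levels of -5.75, -7.59, -7.71 and -7.16 and RA levels of -7.76, -7.53, -7.83 and -7.76.

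Of the 8 genes of the complex on class II promoters, *Creb1* (1.72) and *Rfxap* (0.92) were higher, and *Atf1* (-1.17) and *Nfyb* (-0.82) were lower. The interferon pathway, which induces MHC genes in most cells, had 6 of 16 genes higher and 3 lower. The receptor chains *Ifnar1*, *Ifngr2* and *Ifnar2* rose by 2.38, 1.81 and 0.91 on the log2 scale and the kinases *Jak2* and *Jak1* by 2.25 and 1.18, while the receptor chain *Ifngr1* (0.48, adjusted p = 0.0652) and the kinase *Tyk2* (-0.16, adjusted p = 0.501) did not pass the test. *Irf2*, a factor known to bind interferon-type motifs, was dim on every untreated array and at least 10.9-fold higher on RA arrays (adjusted p = 2.93e-05).

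The factors downstream did not follow in 1 direction. *Irf1*, an activator of class I genes, fell from 2.93, 3.42, 3.10 and 2.97 to 2.05, 2.47, 2.39 and 1.54 (log2 -0.99, adjusted p = 0.00845), and *Irf3* fell by 0.66. *Socs3*, an inhibitor of cytokine signalling, fell by 2.59. Of 24 genes that interferon induces, 7 were higher and 7 lower. *Gbp2*, a guanylate-binding protein, rose by 5.07 and *Usp18* by 2.82, while *Oas1a* fell by 3.36 and *Ifitm1* by 3.06 on the log2 scale. Of the 6 genes of NF-κB, *Nfkb2* (1.41) and *Nfkb1* (0.90) were higher and 0 were lower, by limma also at an unadjusted p under 0.05.

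**Figure D4:**
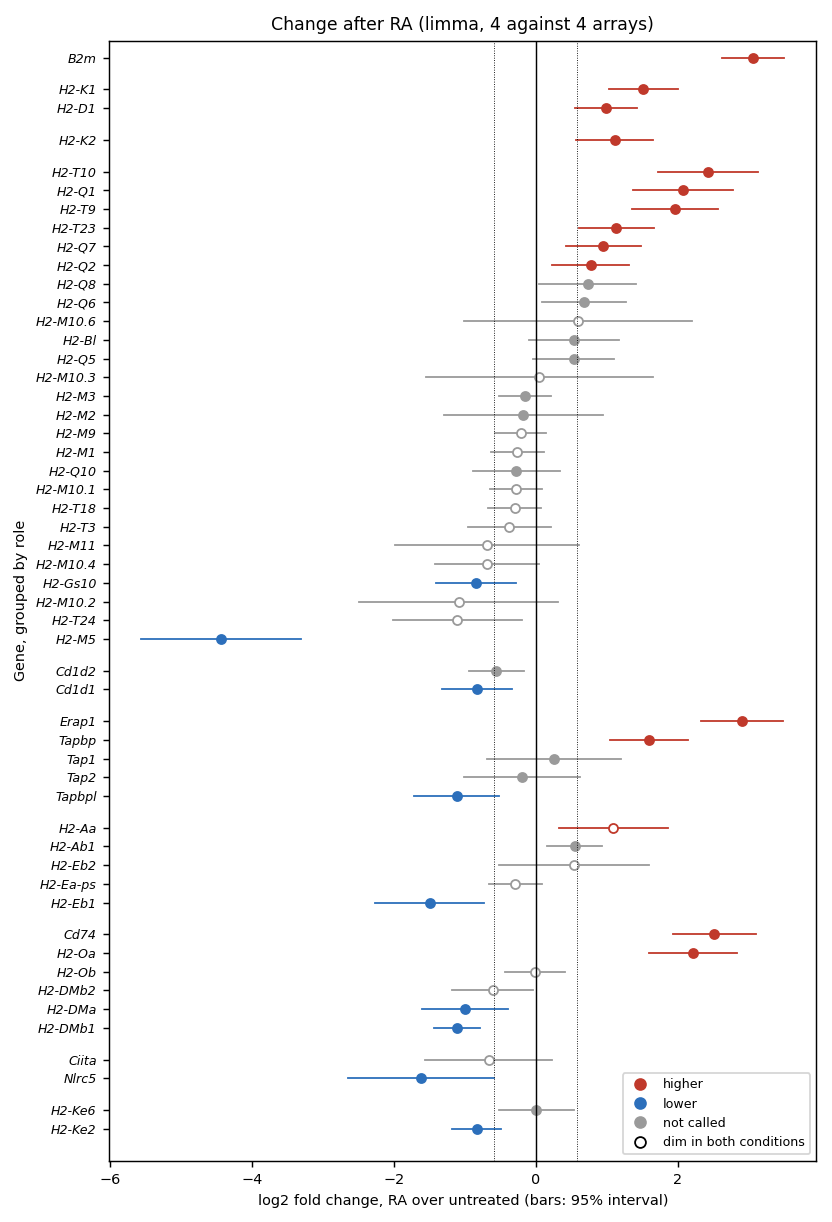
Log2 fold change, RA over untreated, of each of the 52 genes with its 95% interval (limma, 4 against 4 arrays), grouped by role. Red and blue mark genes called higher and lower, grey those not called, and open points genes not well above background on all arrays of either condition; dotted lines are a fold of 1.5. *B2m* (3.06) and *H2-M5* (-4.43) lie at the ends, and *Tap1* and *Tap2* lie around 0.

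The last of the 52 genes bear an MHC name and no known role in antigen presentation. *H2-Ke2*, now called *Pfdn6*, is a prefoldin subunit that helps to fold new proteins. It went from 5.29, 5.20, 4.86 and 5.15 to 4.26, 4.49, 4.26 and 4.16 (log2 -0.83 ± 0.15, adjusted p = 0.00241), without overlap. *H2-Ke6*, an enzyme of fatty acid and steroid metabolism, gave 0.01 (95% interval -0.52 to 0.54).

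Along chromosome 17 the calls did not form 1 block. From the centromeric end in mm9 order, *Tapbp* was higher, *H2-Ke2* lower, *H2-K2* and *H2-K1* higher, *H2-Ke6* not called and *H2-Oa* higher. *H2-DMa* and *H2-DMb1* followed as lower, *Tap1* and *Tap2* as not called, the dim *H2-Aa* as higher and *H2-Eb1* as lower. From *H2-D1* to *H2-Q2* there were 3 genes that were higher in a row, and *H2-T23*, *H2-T9* and *H2-T10* were another 3. The 9 genes between *H2-T10* and *H2-M5* were not called.

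Markers of other cells were read from the same fit. Of 7 fibroblast markers 6 were higher (*Col1a1*, *Col1a2*, *Col3a1*, *Dcn*, *Lum* and *Postn*, and not *Thy1*), and the summed intensity of the 7, relative to the 75th percentile, was 1.06 to 1.84 on untreated arrays and 30.8 to 49.2 on RA arrays. That of the ES cell markers was 273 to 376 and 10.5 to 34.2. These markers differed between the conditions, as did the class I genes that were called. On RA arrays 1 to 4 the fibroblast sum was 46.8, 49.2, 30.8 and 35.7, and the ES cell sum 16.5, 34.2, 14.9 and 10.5. Among *B2m* and the class I genes, 9 were higher. RA arrays 1 to 4 were the lowest RA array for 0, 7, 2 and 0 of these 9, and the highest for 1, 0, 6 and 2. The part of the markers in the difference between conditions was not tested.

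Markers of blood cells were mostly lower or not called, as were all names, of which 13.9% were higher and 22.1% lower. Of 6 leukocyte markers none was higher, 2 were lower (*Coro1a* and *Laptm5*), and *Ptprc*, *Tyrobp* and *Lcp2* were not well above background on any array, with a summed intensity of 3.12 to 4.29 and 0.512 to 1.14. Of 10 markers of macrophages and dendritic cells *Batf3* was higher (2.31) and *Cd80* lower (-2.22), with a sum of 5.34 to 12.4 and 4.90 to 6.25. Of the B cell markers 0 of 4 were higher and 2 lower (sum 0.996 to 1.44 and 0.185 to 0.495), of the T cell markers 1 and 3 of 5 (16.8 to 29.5 and 3.38 to 5.66), and of the endothelial markers 0 and 2 of 5 (0.506 to 1.19 and 0.171 to 0.301). The called B cell markers were *Cd79b* (-2.21) and *Cd79a* (-1.12). Of the T cell markers *Cd3d* (-3.10), *Lck* (-2.88) and *Cd3e* (-1.67) were lower, and *Cd8a*, dim on all untreated arrays, was at least 1.34-fold higher. The called endothelial markers were *Tek* (-2.90) and *Esam* (-0.67). In limma 0 leukocyte, B cell and endothelial markers were higher also at an unadjusted p under 0.05.

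**Figure D5:**
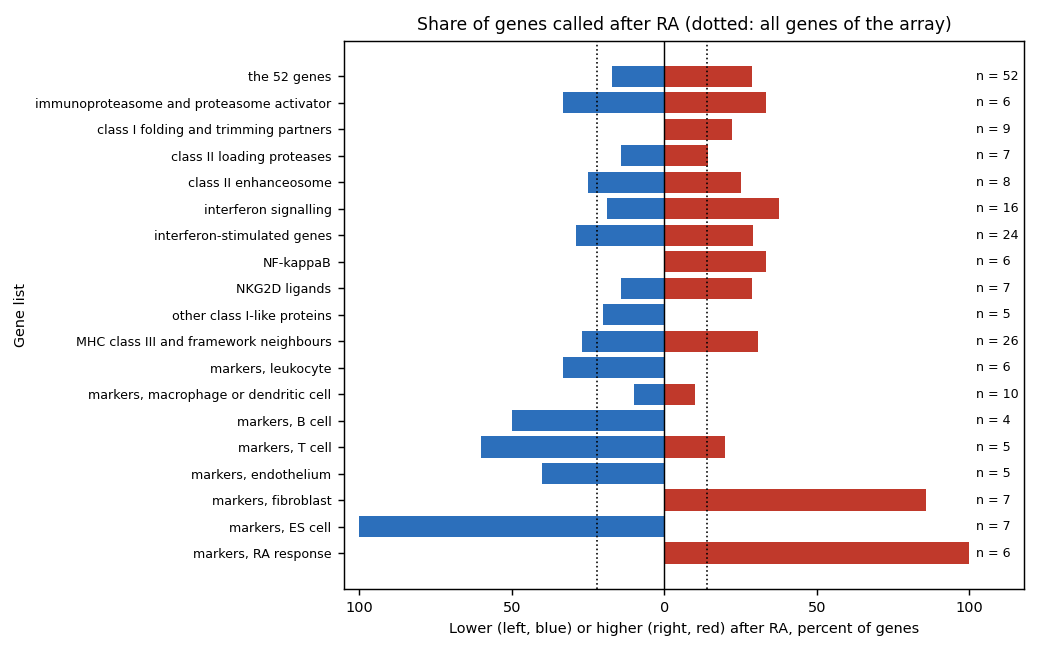
Percent of the genes of each list called higher (right, red) or lower (left, blue) after RA, with the number of genes on the array beside each bar; dotted lines are the 13.9% and 22.1% of all names. All 7 ES cell markers were lower, all 6 genes of the RA response and 6 of 7 fibroblast markers were higher, and no leukocyte marker was higher.

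The arrays of a condition differed in step across these genes. RA array 2 was the lowest RA array for 11 of the 15 genes that were higher, and it had the highest sums of both ES cell markers, 34.2 against 10.5 to 16.5 on the other RA arrays, and fibroblast markers, 49.2 against 30.8 to 46.8. Without it, 14 of the 52 genes were higher and 9 lower. Among untreated arrays, array 1 was the lowest for 11 of the 15, and without it 13 were higher and 8 lower. Untreated array 4 was the highest for 9 and RA array 3 for 8 of the 15.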

How the data were processed

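Expression arrays of E14Tg2A.4 mouse ES cells were used, 4 untreated and 4 treated with RA, with condition and replicate number from the sample labels. The authors deposited the output of Agilent Feature Extraction (version 10.7.3.1), whose processed intensity is corrected for background and not normalized between arrays, with flags of 0 or 1 for spots above background, saturated or outlying. A table of log2 values with the same median on all arrays was also deposited by the authors, and its normalization is not given in the sources used here.

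In R (version 4.3.3) the 75th percentile of each array over spots that are not controls was subtracted from the log2 intensity, spots marked as outliers were left out, and spots of a probe were averaged. A probe of several spots was taken as well above background where a share of at least 0.5 of its spots were. Conditions were compared with limma (version 3.58.1; lmFit and eBayes) and Benjamini-Hochberg adjustment over all 55681 probes, with no block. Genes were called at an FDR of 0.05 and a fold above 1.5, the limits that the study's design text gives. Where a condition was dim on all arrays, the bound took, per array, the higher of the lowest signal well above background and the gene's own. Gene names follow the array design, with probe positions on mm9. Of the 52 genes, 44 were matched to RefSeq (GRCm38.p6) by accession, 6 by symbol and 2 not at all.

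The 52 genes and all lists were chosen with earlier results of these data known. All 52 genes are named or counted. Values per array are given for called genes well above background on all arrays of a condition and for *B2m*, *Tap1*, *Tap2*, *Tapbp*, *Nlrc5*, *Ciita*, *Cd74*, *H2-K1* and *H2-D1*. Of each other list the called genes are named, up to the 4 with the largest change (more of the markers), with *Irf1*, *Psmb8* and *Psmb9*. *Ifngr1*, *Ifngr2*, *Jak1*, *Tyk2*, *Ifnar2*, *Irf3*, *Psme3*, *Calr*, *Canx*, *Sec61g*, *Sec61a1* and *Uggt1* were added after their values were seen. The lists held the immunoproteasome, folding partners, class II proteases, the class II promoter complex, interferon signalling, genes induced by interferon, NF-κB, ligands of NKG2D, other class I-like proteins, neighbours in the MHC and markers of 8 kinds. *C4a* and *Raet1d*, also listed, were not found among the array's names, and results for 3 further list genes are not reported here.

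Among 27493 probes that stood above background on every array, deviations from the condition means were correlated between arrays. Same-numbered arrays 1 to 4 gave 0.186, 0.189, 0.104 and 0.151, and the highest value between other numbers was 0.142. Number 3 lay under that value, and only numbers 1 and 2 had both arrays on the same slide. Whether the numbers pair the cultures was therefore not settled, and the main fit used no block. In simulated data for this comparison, with 200 of 55681 probes changed by a log2 value of 2, 141 were found again, and 5 that were not changed were also called. The alternatives comprised quantile normalization, normexp (offset 50) with and without it, the deposited log2 table, slide and replicate number as blocks, each slide alone, each array left out, a filter on dim probes (at least 4 arrays above background), the mean of a gene's probes, limma's treat and a fold limit of 2. The number of arrays limits the precision of every value.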

Additional observations from a re-analysis of the deposited data

Results flagged for a closer look

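In groups of 4 arrays, the gap of the lowest or highest array to its neighbour was set against the range of the group for the genes with 4 arrays well above background in a condition. *H2-K1* was the only gene marked by this comparison. Its level on RA array 2 was 3.07, and the other RA arrays lay between 3.64 and 3.68. The gap took up 0.928 of the range. Of 66 groups of 4 examined this was 1, and chance alone would mark about 3.3. RA array 2 also had the highest sums of ES cell markers (34.2) and of fibroblast markers (49.2) among the RA arrays, and its part in the value of *H2-K1* was not tested.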

How the results depend on the processing

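The counts of 15 higher and 9 lower genes, and of 24 and 17 in the lists of other pathway genes, stayed within 1.5 times under most alternatives. Slide 1 alone gave 11 and 2, with 14 and 9 in the pathway lists. Slide 2 alone gave 7 and 3, with 15 and 6. The treat test gave 9 and 2, with 16 and 8, and a fold limit of 2 gave 12 and 5, with 16 and 9. Each slide alone has 2 arrays a condition, and treat and the fold limit ask for a larger change by construction. Quantile normalization gave 16 and 6, with 28 and 13. The median log2 fold change of the genes moved from -0.08 to 0.54 when dim probes were removed, over the 36 genes left. Leaving out one array at a time gave 13 to 16 higher and 8 to 11 lower genes, 20 to 26 higher and 13 to 17 lower pathway genes, and medians from -0.18 to -0.0090. With the replicate number as a block, the fit gave 15 higher and 10 lower genes and 26 and 16 pathway genes. The block ended the call of *H2-Aa*, added *H2-Q8* and *H2-T24* and changed no other call among the 52. *H2-Aa* reversed with normexp (-0.0033). For calls of single genes that ended, the cause was not tested. For genes dim in a condition the main change is only a bound, and 10 of the 52 could not be measured on any array.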

Other observations

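Ligands of NKG2D, a receptor by which natural killer cells recognise stressed cells, were spread in both directions. Of 7 genes on the array 2 were higher and 1 was lower. *Raet1c*, a RAE-1 ligand, went from -1.35, -0.89, -0.79 and -1.39 to 1.21, 0.38, 3.88 and 3.22 (log2 3.27 ± 0.71, SE, adjusted p = 0.00592). The RA arrays differed among themselves by more than 3 log2 units, with arrays 3 and 4 far above arrays 1 and 2. *Ulbp1* gave 0.61 (adjusted p = 0.0307) and *H60a* -1.63 (adjusted p = 0.00253). Raet1 genes are near copies of each other, and which of them the probe read was not tested.

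Of 26 other genes of the MHC region, among them *Psmb8* and *Psmb9*, 8 were higher and 7 lower. *Aif1*, a gene known from macrophages, was dim on all untreated arrays and at least 3.05-fold higher on RA arrays (adjusted p = 0.000136). The complement gene *C2* gave 2.43 (adjusted p = 0.0014), the complement gene *C4b* -2.03 (adjusted p = 0.00726) and *Flot1*, a lipid raft protein, 1.59 (adjusted p = 0.000271). Of 7 proteases and relatives that act on class II, *Ctsh* gave 2.05 (adjusted p = 0.00072) and *Ifi30* -0.77 (adjusted p = 0.00716). Of 5 other class I-like proteins, *Hfe*, which regulates iron uptake, gave -2.19 (adjusted p = 0.00547) and 0 were higher by limma, with 2 at an unadjusted p under 0.05.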
